A study of Mus musculus with 2 samples.

Results

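The genes described here are those of glycolysis, the breakdown of glucose to pyruvate and lactate, together with genes that respond to low oxygen through the hypoxia-inducible factors (HIF). They were listed by symbol, and a gene entered when the array annotation gave a probe set that symbol and no other. Of 39 listed genes, 36 were measured, by 45 probe sets, out of 19938 genes measured in all. The list was drawn up with earlier results of these data known. Levels came from mouse embryonic fibroblasts (MEFs), cultured connective-tissue cells, of the genotype MatDup.dist7, in which both copies of distal chromosome 7 come from the mother, and of PatDup.dist7, in which both come from the father. Both cultures were started from embryos at 13.5 days post coitum and grown in the same serum-containing medium. The labels do not state the oxygen tension, the passage number or the number of embryos behind each culture. Each genotype was hybridised to 1 whole-transcript array, so no difference could be tested against variation between cultures, and every difference below is a description of these arrays.

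In cells, glucose enters through facilitative transporters and is split through a fixed chain of enzymes, most of which exist as isozymes encoded by different genes. When oxygen is plentiful, prolyl hydroxylases mark the HIF alpha subunits for destruction. When it is scarce, the alpha subunits persist, pair with the beta subunit and switch on many glycolytic genes, genes for vascular peptides, for mitophagy and for collagen modification. Control of the alpha subunits thus acts largely on protein stability, which an array does not read. Fibroblasts are known for high lactate output in culture and for depositing collagen, whose maturation needs oxygen-dependent hydroxylases.

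The 36 genes had a median absolute log2 difference of 0.39, against 0.38 for all genes, and 1 gene stood far apart. Adm, which encodes the vasodilator peptide adrenomedullin, was 4.80-fold higher in MatDup.dist7, and Pfkfb4, a regulator of phosphofructokinase, was 2.12-fold higher in PatDup.dist7. These folds, and all differences below, are on the log2(intensity + 16) scale, MatDup.dist7 minus PatDup.dist7, which understates the change of weakly detected genes. The other 34 measured genes lay within 2-fold. Thus 1 of 36 genes reached 2-fold in favour of MatDup.dist7, against 4.47% of all genes, and 1 of 36 in favour of PatDup.dist7, against 3.16% of all genes. Among the 12733 genes whose higher level exceeded the median of all values, an intensity of 66.4, the shares were 2.74% in favour of MatDup.dist7 and 2.42% in favour of PatDup.dist7. Of the 36 genes, 35 passed that filter, the exception being Car9. At 1.5-fold, 5 of 36 genes were higher in MatDup.dist7, against 15.5% of all genes, and 4 of 36 in PatDup.dist7, against 12.5%. The counts were therefore close to those of the array as a whole at either threshold. In these bulk cultures, fewer cells of a type and less RNA per cell cannot be told apart.

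**Figure D1:**
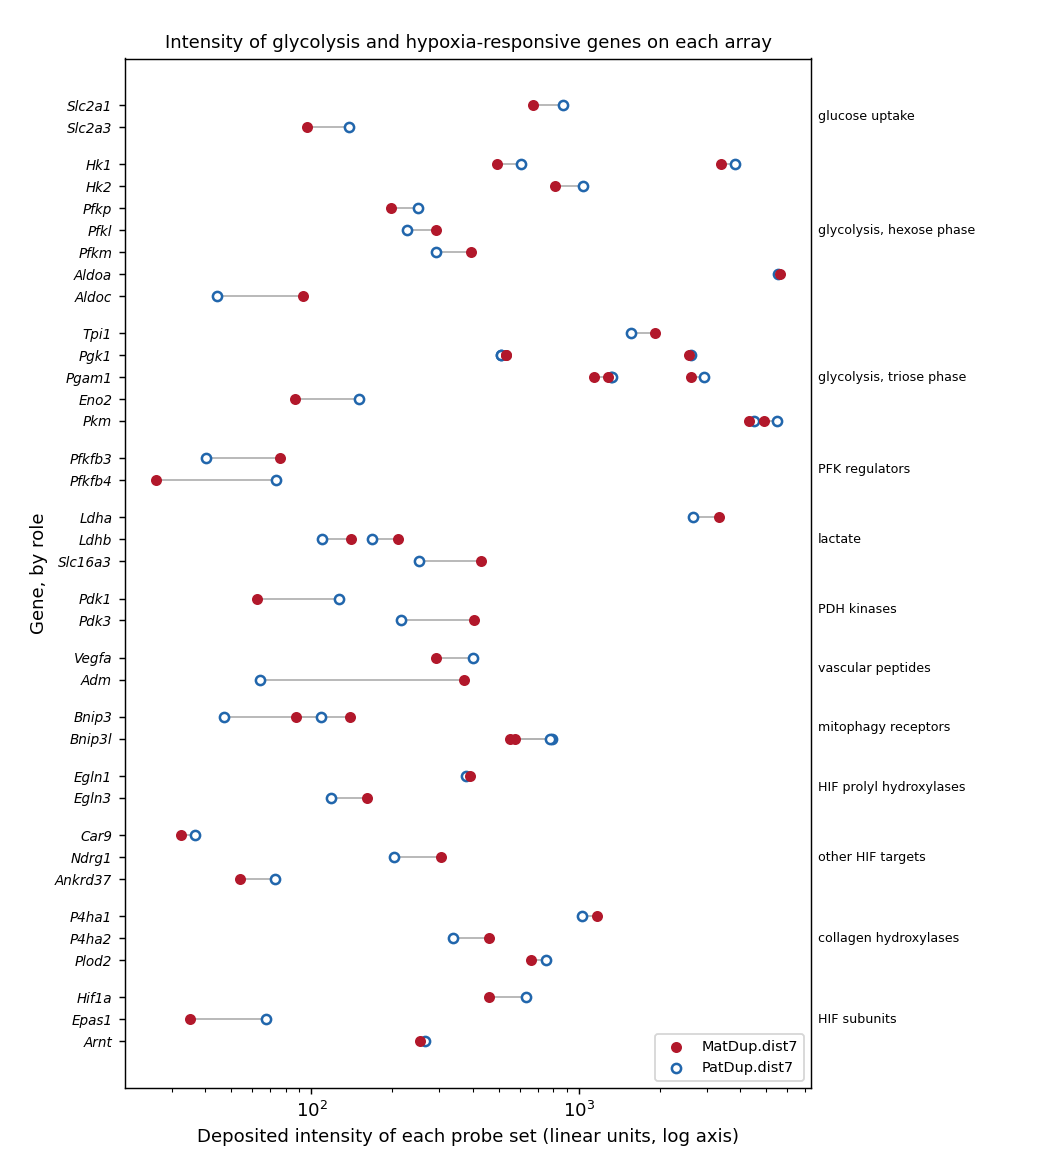
Deposited intensity (linear units on a log axis) of every probe set of the 36 measured genes, grouped by role, with filled red circles for MatDup.dist7 and open blue circles for PatDup.dist7; a grey line joins both arrays. The widest gap is that of Adm, at 370.3 in MatDup.dist7 MEFs and 64.4 in PatDup.dist7 MEFs.

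All 12 fibroblast markers examined, the cell type of the labels, exceeded the filter, with a summed intensity of 47136 in MatDup.dist7 MEFs and 55305 in PatDup.dist7 MEFs. Transcripts of other cell types were also detected. Macrophage markers (6 of 7 above the filter) summed to 4441 in MatDup.dist7 MEFs and 4636 in PatDup.dist7 MEFs, and skeletal muscle markers (5 of 7) to 2950.0 in MatDup.dist7 MEFs and 2615 in PatDup.dist7 MEFs. The summed levels differed more for cartilage markers (5 of 7; 1648 in MatDup.dist7 MEFs and 677 in PatDup.dist7 MEFs), epithelial markers (6 of 7; 993 in MatDup.dist7 MEFs and 616 in PatDup.dist7 MEFs) and neural markers (4 of 7; 1127 in MatDup.dist7 MEFs and 852 in PatDup.dist7 MEFs). The neural sum rested on Tubb3, with 633 in MatDup.dist7 MEFs and 324 in PatDup.dist7 MEFs. By direction, 4 neural markers were higher in MatDup.dist7 and 3 were higher in PatDup.dist7. Endothelial markers (2 of 7 above the filter) summed to 664 in MatDup.dist7 MEFs and 681 in PatDup.dist7 MEFs, and the 4 measured erythroid markers to 233 in MatDup.dist7 MEFs and 208 in PatDup.dist7 MEFs. None of these markers was listed at 0. Sex-linked transcripts differed too, with the Y-linked Eif2s3y at 112 in MatDup.dist7 MEFs and 6.44 in PatDup.dist7 MEFs, and Xist at 0.00166 in MatDup.dist7 MEFs and 91.2 in PatDup.dist7 MEFs. The part of these cell types in the differences below was not tested, and sex and genotype cannot be told apart.

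Both listed glucose transporters were lower in MatDup.dist7, whereas 8 of 11 other genes of glucose and lactate transport, described further on, were higher there. Across the array, 10240 of all 19938 genes were higher in MatDup.dist7. Slc2a1, the widely expressed basal transporter, showed an intensity of 671 in MatDup.dist7 MEFs and 871 in PatDup.dist7 MEFs, which is a log2 difference of -0.37. Slc2a3, a high-affinity transporter known from neurons, had 96.5 in MatDup.dist7 MEFs and 138 in PatDup.dist7 MEFs (-0.46). Both genes leaned the same way by similar amounts. The hexokinases, which trap glucose in the cell by phosphorylation, did the same. Hk2, the inducible form, had 811 in MatDup.dist7 MEFs and 1034 in PatDup.dist7 MEFs (-0.34).

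Hk1, the housekeeping hexokinase, was read by probe sets of unequal standing. Its first probe set had 494 in MatDup.dist7 MEFs and 605 in PatDup.dist7 MEFs (-0.28), and its second had 3396 in MatDup.dist7 MEFs and 3829.6 in PatDup.dist7 MEFs (-0.17). The second is tied to Hk1 in the annotation by 1 sequence record only. That record recurs in 16 other probe sets that also carry the symbol of the ribosomal protein gene Rpl17, and were left out for having several symbols. Those 16 ranged from 661 to 6673 in MatDup.dist7 MEFs and from 536 to 8147 in PatDup.dist7 MEFs, with a median difference of -0.20. Whether the second probe set reads Hk1 or Rpl17 sequence was not tested. The average of both gave -0.23 for Hk1.

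Phosphofructokinase, the main control point of the pathway, is a tetramer of subunits encoded by separate genes, and these did not lean the same way. The platelet-type subunit gene Pfkp had 199 in MatDup.dist7 MEFs and 249.5 in PatDup.dist7 MEFs (-0.31). The liver-type Pfkl had 292 in MatDup.dist7 MEFs and 228 in PatDup.dist7 MEFs (0.34), and the muscle-type Pfkm had 395 in MatDup.dist7 MEFs and 292 in PatDup.dist7 MEFs (0.42). Relative to Pfkp, the differences of Pfkl and Pfkm were thus 0.64 and 0.72 higher. The spread between probe sets of 1 gene gives a scale for such values. Over 1660 distinct probe sets of 630 genes, each above the filter, the standard deviation of the log2 difference within a gene was 0.41, which holds no variation between cultures. A difference of the size seen for any single phosphofructokinase subunit is of the order of that spread.

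Aldolase cuts the sugar into trioses. The muscle and fibroblast form Aldoa differed by 0.03, with 5625 in MatDup.dist7 MEFs and 5512 in PatDup.dist7 MEFs. The brain-type Aldoc had 92.6 in MatDup.dist7 MEFs and 44.4 in PatDup.dist7 MEFs (0.85), one of the larger differences of the pathway. It passed 2-fold under 2 of 7 alternative settings, both of which treat low signals with less damping.

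The 5 measured enzymes of the triose phase, which yields the ATP of the pathway, had a median absolute difference of 0.13, against 0.38 for all genes. Most of the 5 were strongly detected. All genes with a mean intensity from 256 to 1024 had 0.29, and those at 1024 or over had 0.23. Tpi1, the triose isomerase gene, had 1921 in MatDup.dist7 MEFs and 1558 in PatDup.dist7 MEFs (0.30). Pgk1, which carries out the first ATP-forming step and is X-linked, had 2577 in MatDup.dist7 MEFs and 2623 in PatDup.dist7 MEFs at the probe set with the highest signal (-0.03). Its other probe sets listed identical values, 532 in MatDup.dist7 MEFs and 510.3 in PatDup.dist7 MEFs (0.06). The probe sets of Pgk1 bracket 0, so the gene has no direction here.

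Pgam1, the phosphoglycerate mutase gene, had 1139, 2614 and 1286 in MatDup.dist7 MEFs over its 3 probe sets, against 1309, 2916 and 1324 in PatDup.dist7 MEFs. All 3 were slightly lower in MatDup.dist7, with a mean difference of -0.13. Pkm, which encodes the muscle-type pyruvate kinase that ends the pathway, had 4297 and 4906 in MatDup.dist7 MEFs at its probe sets, against 4509.7 and 5490.4 in PatDup.dist7 MEFs (mean -0.12). Its splice forms were not separated here. Eno2, the neuron-type enolase gene, departed most in this phase, with 87.0 in MatDup.dist7 MEFs and 151 in PatDup.dist7 MEFs (-0.70). Gpi1 and Eno1 were not analysed here. Gapdh appears only in 25 probe sets (20 with distinct values) that carry several symbols, and these were left out by the rule. Their differences ran from -0.15 to 0.27 with a median of 0.04, over intensities of 3817 to 20770.0 in MatDup.dist7 MEFs and 3172 to 20785 in PatDup.dist7 MEFs.

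Taken over the 12 measured enzymes of both phases, none differed by at least 2-fold, 6 were higher in MatDup.dist7 and 6 were higher in PatDup.dist7. Pgk1, which has no direction here, was counted as higher in MatDup.dist7 by its average. Across the array, 18416 of all 19938 genes lay within 2-fold. The size of a difference went with the level. Across all genes, 14.1% of those with a mean intensity under 64 differed by at least 2-fold in either direction, compared with 4.24% from 64 to 256, 1.29% from 256 to 1024 and 0.535% at 1024 or over. The 7 described genes in the highest class had a median absolute difference of 0.19, against 0.23 for all 748 genes of that class. In the lower classes the described genes differed more than all genes did. The 14 in the class from 256 to 1024 had 0.39, against 0.29 for all 3633 genes. The 10 from 64 to 256 had 0.53, against 0.37 for all 7332 genes, and the 5 under 64 had 0.71, against 0.48 for all 8225 genes.

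**Figure D2:**
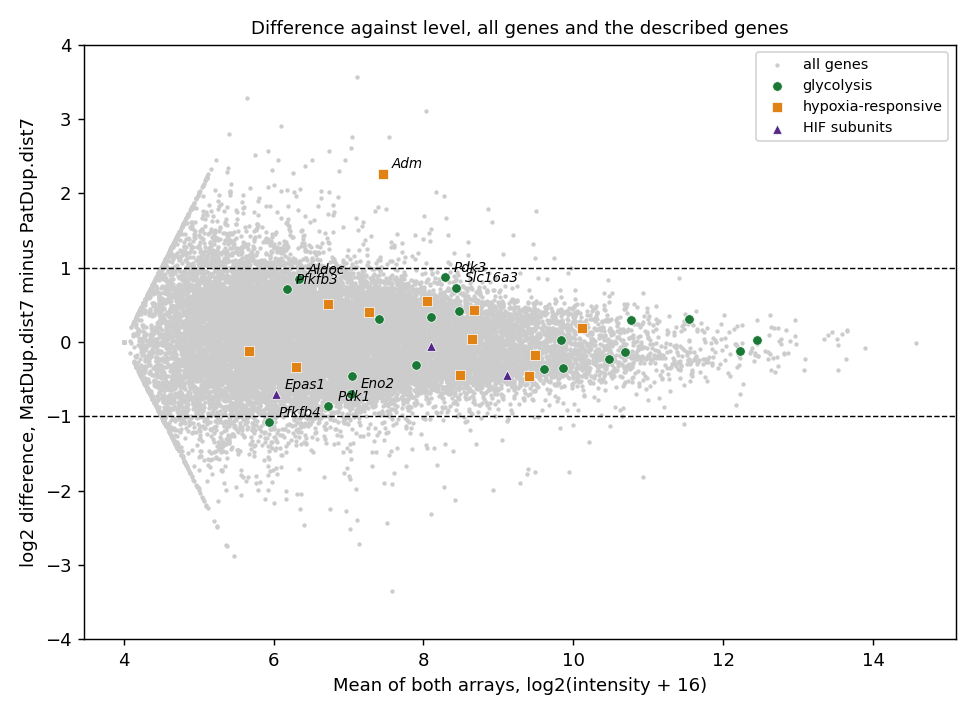
Log2 difference, MatDup.dist7 minus PatDup.dist7, against the mean log2 level of both arrays for all genes (grey) and for the described genes by role (coloured); dashed lines mark 2-fold, genes at least 0.69 apart are named, and 4 genes lie outside the plotted range. Only Adm and Pfkfb4 of the described genes lie beyond the dashed lines, and the cloud narrows towards high levels.

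Larger and opposite differences were found among the genes that regulate the pathway. Pfkfb3 and Pfkfb4 encode bifunctional enzymes that make and remove the sugar bisphosphate that activates phosphofructokinase. Pfkfb3 had 76.2 in MatDup.dist7 MEFs and 40.5 in PatDup.dist7 MEFs, which is a log2 difference of 0.71. Pfkfb4 had 26.3 in MatDup.dist7 MEFs and 73.5 in PatDup.dist7 MEFs (-1.08). The differences of these paralogs thus lay 1.79 apart. Both are weakly detected, near or below the median signal, and the Pfkfb4 difference was -0.61 with a pseudocount of 64 and -1.49 with low values raised to the 25th percentile.

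The pyruvate dehydrogenase kinases, which inhibit the conversion of pyruvate to acetyl-CoA by pyruvate dehydrogenase, showed the same kind of contrast. Pdk1, a HIF target, had 62.4 in MatDup.dist7 MEFs and 127 in PatDup.dist7 MEFs (-0.87). Pdk3, an X-linked member of the family, had 406 in MatDup.dist7 MEFs and 215 in PatDup.dist7 MEFs (0.87). Their differences were equal in size and opposite in sign, 1.74 apart. With a pseudocount of 1, or with low values raised to the 25th percentile, Pdk1 passed 2-fold and Pdk3 did not.

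The 3 listed genes of lactate handling were higher in MatDup.dist7. Ldha, whose product favours making lactate, had 3317 in MatDup.dist7 MEFs and 2672 in PatDup.dist7 MEFs (0.31). Ldhb, whose product favours using it, had 211 and 141 in MatDup.dist7 MEFs at its probe sets, against 169 and 109 in PatDup.dist7 MEFs (mean 0.31). Ldha and Ldhb thus had the same difference, while the weakly detected paralog Ldhc, named after its value was seen, lay at -0.65. Slc16a3, the main lactate exporter of glycolytic cells, had 430 in MatDup.dist7 MEFs and 253 in PatDup.dist7 MEFs (0.73). Over the 21 measured genes from uptake to lactate and the kinases, 11 were higher in MatDup.dist7 and 10 were higher in PatDup.dist7. Pgk1 was counted among the 11 by its average. The median of the 21 was 0.03, against 0.02 for all genes. Without the X-linked Pgk1 and Pdk3 that median was -0.12, so it has no settled sign.

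**Figure D3:**
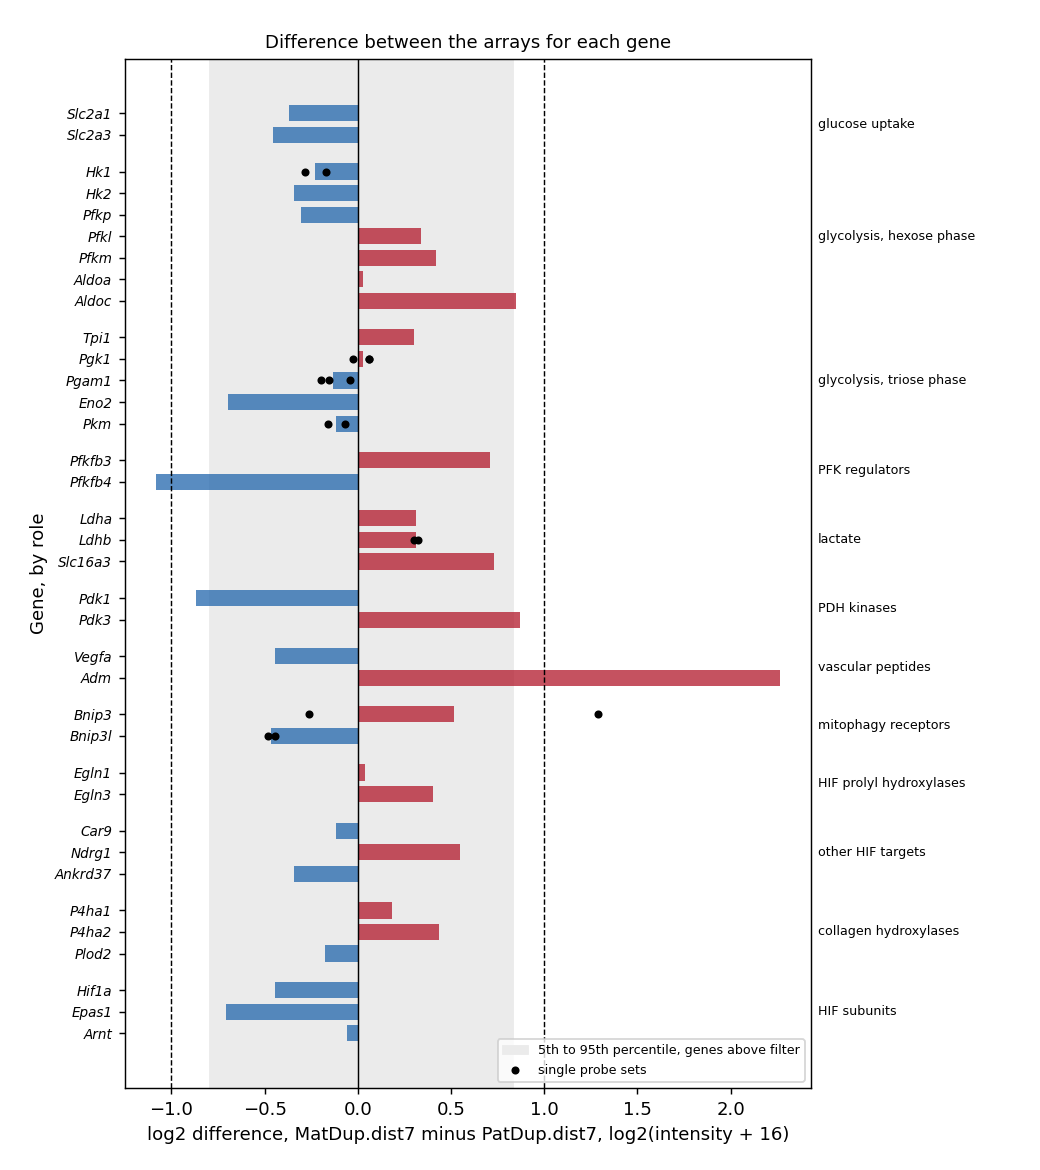
Log2 difference, MatDup.dist7 minus PatDup.dist7, of each measured gene by role (red bars higher in MatDup.dist7, blue bars higher in PatDup.dist7); black dots give single probe sets where a gene has several, dashed lines mark 2-fold, and the grey band spans the 5th to the 95th percentile (-0.80 to 0.83) of the 12733 genes above the signal filter. Adm, Aldoc and Pdk3 exceed the band on the right, Pfkfb4 and Pdk1 on the left, and the probe sets of Bnip3 fall on both sides of 0. Adm, Aldoc, Pfkfb4 and Pdk1 passed the filter through their higher array alone.

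Among the HIF targets outside glycolysis, Adm was alone beyond 2-fold. It had 370.3 in MatDup.dist7 MEFs and 64.4 in PatDup.dist7 MEFs, which is a log2 difference of 2.26 from 1 probe set. By size this ranked 40 of the 12733 genes above the filter. Adm passed that filter, an intensity of 66.4, through its MatDup.dist7 level alone. Under 7 alternative settings the difference ranged from 1.76 to 2.52. Of these, the filter and the choice of probe set could not move a gene read by 1 probe set. Vegfa, the principal vascular growth factor gene and a standard HIF target, leaned the other way, with 291 in MatDup.dist7 MEFs and 402 in PatDup.dist7 MEFs (-0.45). These vascular peptide genes were thus 2.71 apart in their differences.

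Adm lies on chromosome 7, as do Ldha, Aldoa and Bnip3 among the measured genes. In order along that chromosome they hold places 721 (Ldha), 1300 (Adm), 1443 (Aldoa) and 1581 (Bnip3) of 1738 measured genes, while the imprinted Igf2 holds place 1699 and Cdkn1c place 1711. The sources used here do not give the limits of the duplicated segment, so none of the 4 was assigned to it. The 5 measured genes on either side of Adm all lay within 2-fold, as did 18416 of all 19938 genes. Their differences ran from -0.11 to 0.90 with a median of 0.32, against 0.02 for all genes. Around Bnip3 the 10 neighbours had a median of 0.02, and 1 of them, Stk32c, differed by at least 2-fold (-1.57), at 6.49 in MatDup.dist7 MEFs and 50.8 in PatDup.dist7 MEFs, both below the filter. Stk32c was named after its value was seen.

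The promoters of the genes beyond 2-fold and of the oppositely shifted kinases are shown because HIF binds a short core, written here as ACGTG or GCGTG. The windows run from 250 bases before the annotated start to 50 after it, on the gene's strand, from RefSeq on build GRCm38.p6. The core on either strand stands in capitals, and CACGC is GCGTG read on the opposite strand. Adm lies at chr7:110627407-110627706 on the plus strand, Pfkfb4 at chr9:108991652-108991951 on the plus strand, Pdk3 at chrX:93832101-93832400 on the minus strand and Pdk1 at chr2:71872974-71873273 on the plus strand. For Pdk1, which has a further window, the one farthest upstream is given.
Adm: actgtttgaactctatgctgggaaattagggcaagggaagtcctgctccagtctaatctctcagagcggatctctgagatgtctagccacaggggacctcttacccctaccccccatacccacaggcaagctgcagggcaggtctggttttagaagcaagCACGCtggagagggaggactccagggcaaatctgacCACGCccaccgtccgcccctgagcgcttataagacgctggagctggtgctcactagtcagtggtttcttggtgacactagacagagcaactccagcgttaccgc
Pfkfb4: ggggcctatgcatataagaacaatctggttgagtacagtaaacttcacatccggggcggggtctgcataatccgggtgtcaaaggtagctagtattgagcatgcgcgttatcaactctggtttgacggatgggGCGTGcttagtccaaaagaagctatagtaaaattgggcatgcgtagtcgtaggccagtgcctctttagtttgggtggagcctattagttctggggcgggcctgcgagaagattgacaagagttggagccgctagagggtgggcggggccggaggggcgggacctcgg
Pdk3: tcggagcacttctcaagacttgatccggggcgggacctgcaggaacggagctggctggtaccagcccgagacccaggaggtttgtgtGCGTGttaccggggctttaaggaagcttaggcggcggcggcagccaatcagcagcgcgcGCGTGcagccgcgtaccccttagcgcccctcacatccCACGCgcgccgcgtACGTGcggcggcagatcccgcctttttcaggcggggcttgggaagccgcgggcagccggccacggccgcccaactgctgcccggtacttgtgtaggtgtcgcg
Pdk1: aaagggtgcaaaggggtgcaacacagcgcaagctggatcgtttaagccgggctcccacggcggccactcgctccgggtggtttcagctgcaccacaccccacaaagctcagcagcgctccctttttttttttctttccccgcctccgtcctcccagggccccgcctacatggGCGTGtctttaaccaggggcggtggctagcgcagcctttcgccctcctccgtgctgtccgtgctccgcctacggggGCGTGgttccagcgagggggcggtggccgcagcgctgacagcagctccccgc
The Adm window held GCGTG at 2 places, both on the opposite strand, starting 90 and 54 bases before the start. The Pfkfb4 window held it once, 117 bases before the start. The Pdk3 window held 3 copies of GCGTG and 1 of ACGTG, and the printed Pdk1 window 2 copies of GCGTG and none of ACGTG. The further Pdk1 window, which is not printed, held neither. The printed windows of genes that were higher in MatDup.dist7 and of those that were higher in PatDup.dist7 both carried these letters.

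RefSeq windows were found for 31 of the 36 measured genes, 43 windows in all, some of which overlap. Of the 43, 35 (81.4%) held ACGTG or GCGTG on either strand, compared with 43.8% of all 32851 promoter windows and 51.7% of the 19177 windows of genes measured here. ACGTG was present in 25 of 43 windows (58.1%), in 19.6% of all windows and in 21.6% of those of genes measured here. GCGTG was present in 24 of 43 windows (55.8%), in 32.4% of all windows and in 40.9% of those of genes measured here. The genes were listed for glycolysis or a known response to HIF, so the choice of list bears on these shares. Eno2 and Tpi1 had neither in their windows. These are matches of letters in a short window, and no binding was measured.

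The mitophagy receptor genes Bnip3 and Bnip3l, which tag mitochondria for removal, gave readings of different quality. Bnip3l was even, with 576 and 551 in MatDup.dist7 MEFs at its probe sets, against 789 and 777 in PatDup.dist7 MEFs (mean -0.46). For Bnip3, 1 probe set had 139 in MatDup.dist7 MEFs and 47.3 in PatDup.dist7 MEFs (1.29), and the other had 87.7 in MatDup.dist7 MEFs and 108 in PatDup.dist7 MEFs (-0.26). Both list the same transcripts in the annotation, yet they differ in direction. The average of 0.51 therefore does not describe either, and no direction can be given for Bnip3.

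The prolyl hydroxylases are the oxygen sensors of the system. Egln1, the main one, had 390.0 in MatDup.dist7 MEFs and 379 in PatDup.dist7 MEFs (0.04). Egln3, which is itself induced by HIF, had 162 in MatDup.dist7 MEFs and 119 in PatDup.dist7 MEFs (0.40). Both stayed within the spread between probe sets. Car9, a carbonic anhydrase gene used as a marker of hypoxia, was weakly detected on both arrays, with 32.7 in MatDup.dist7 MEFs and 36.9 in PatDup.dist7 MEFs (-0.12). Ankrd37, an ankyrin-repeat gene induced by HIF, had 54.2 in MatDup.dist7 MEFs and 72.9 in PatDup.dist7 MEFs (-0.34). Ndrg1, a stress-responsive gene, had 304 in MatDup.dist7 MEFs and 203 in PatDup.dist7 MEFs (0.55). These markers of hypoxia did not share a direction.

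Collagen needs hydroxylated prolines to form stable helices. P4ha1 and P4ha2, which encode catalytic subunits of collagen prolyl hydroxylase, had 1168 and 460.2 in MatDup.dist7 MEFs, against 1025 and 337 in PatDup.dist7 MEFs (0.19 and 0.43). Plod2, a lysyl hydroxylase gene for collagen cross-linking, had 661 in MatDup.dist7 MEFs and 749 in PatDup.dist7 MEFs (-0.18). Over the 12 hypoxia-responsive genes outside glycolysis, 7 were higher in MatDup.dist7 and 5 were higher in PatDup.dist7. Bnip3, for which no direction can be given, was counted among the 7 by its average. The median of the 12 was 0.11. With each gene read by its probe set of highest mean, Bnip3 changed sign and that median was -0.04.

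The 3 listed HIF subunit genes had negative differences, from -0.71 to -0.06. Hif1a, the general oxygen-regulated alpha subunit, had 460.0 in MatDup.dist7 MEFs and 632 in PatDup.dist7 MEFs (-0.45). Epas1, an alternative alpha subunit best known from endothelium, had 35.2 in MatDup.dist7 MEFs and 67.4 in PatDup.dist7 MEFs (-0.71), weakly detected in both. Arnt, the constitutive beta subunit, had 254 in MatDup.dist7 MEFs and 265 in PatDup.dist7 MEFs (-0.06). Other subunit genes had positive differences, 0.96 for the beta subunit paralog Arnt2 and 0.39 for the weakly detected Hif3a, which was named after its value was seen.

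Other genes of these pathways were taken from lists by role, which held 116 measured genes. Of these, 9 reached 2-fold in favour of MatDup.dist7 (7.76%) and 6 in favour of PatDup.dist7 (5.17%), both above the shares among all genes given above. Among the 90 of them above the filter the counts were 6 in favour of MatDup.dist7 (6.67%) and 3 in favour of PatDup.dist7 (3.33%). The lists were not chosen independently of earlier results, and no test was made of these shares.

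**Figure D4:**
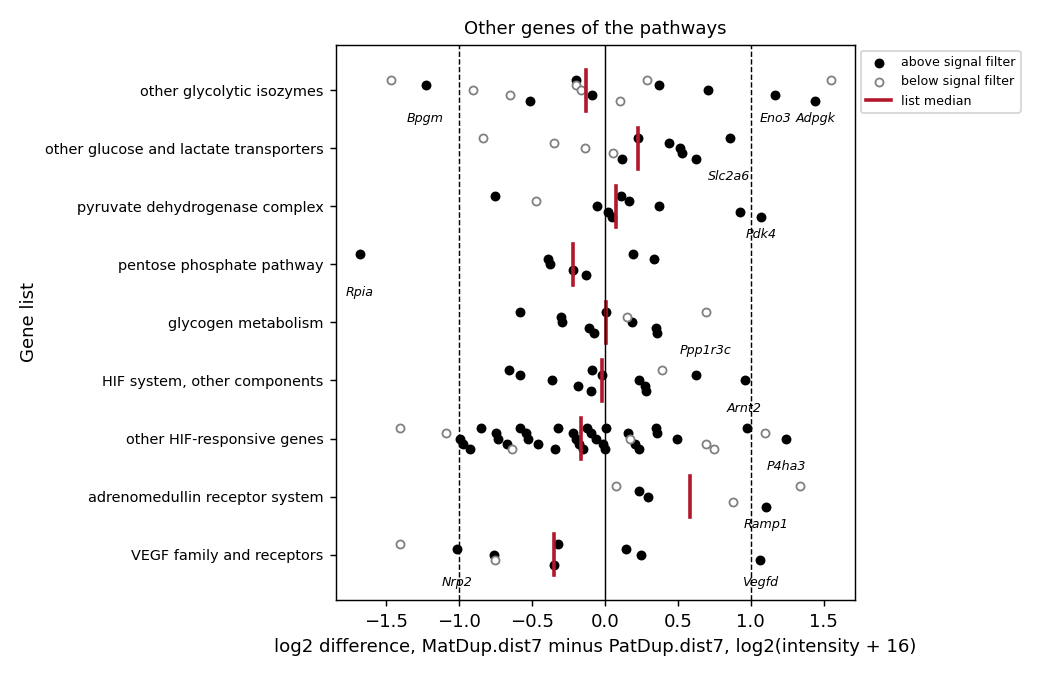
Log2 difference, MatDup.dist7 minus PatDup.dist7, of other genes of these pathways by list (black points above the signal filter, open points below it; red bars are list medians; dashed lines mark 2-fold). Named are the genes beyond 2-fold above the filter, or the one farthest from 0 where a list has none; all 6 genes of the adrenomedullin receptor list lie to the right of 0.

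Of 16 measured isozymes of glycolysis outside the main list, 3 (18.75%) passed 2-fold in favour of MatDup.dist7, against 4.47% of all genes. In favour of PatDup.dist7, 2 (12.5%) passed it, against 3.16% of all genes. Adpgk, an ADP-dependent glucokinase gene, had 373 in MatDup.dist7 MEFs and 127 in PatDup.dist7 MEFs (1.44). Eno3, the muscle-type enolase gene, had 566 in MatDup.dist7 MEFs and 243 in PatDup.dist7 MEFs (1.17), opposite in sign to Eno2. The skeletal muscle markers examined did not share a direction, with 3 of 7 higher in MatDup.dist7 and none beyond 2-fold. Their summed intensity was 2950 in MatDup.dist7 MEFs and 2615 in PatDup.dist7 MEFs. The part of muscle cells in the Eno3 difference was not tested. Bpgm, which diverts a glycolytic intermediate to bisphosphoglycerate and is best known from red cells, had 102 in MatDup.dist7 MEFs and 260.5 in PatDup.dist7 MEFs (-1.23). Pklr and Hk3 also passed 2-fold, in opposite directions, but lay below the filter. The 16 measured isozymes had a median of -0.13.

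The lists of transport, of the pyruvate dehydrogenase complex and of other HIF components held at most 1 gene beyond 2-fold each. Of 11 other genes of glucose and lactate transport, none passed 2-fold, 8 were higher in MatDup.dist7, and Slc2a6 was farthest from 0, with 137 in MatDup.dist7 MEFs and 68.7 in PatDup.dist7 MEFs (0.85). Of all 19938 genes, 18416 lay within 2-fold and 10240 were higher in MatDup.dist7. Of 10 genes of the pyruvate dehydrogenase complex and its control, Pdk4, a further kinase gene induced by fasting, had 100.3 in MatDup.dist7 MEFs and 39.4 in PatDup.dist7 MEFs (1.07). Pdk4 was the 1 beyond 2-fold (10%), against 4.47% of all genes in favour of MatDup.dist7. Pdk4 passed the filter through its MatDup.dist7 level alone. The kinases therefore included genes higher in either genotype. Of 13 other components of the HIF system, none passed 2-fold. Arnt2, a beta subunit paralog on chromosome 7, came nearest, with 222 in MatDup.dist7 MEFs and 106 in PatDup.dist7 MEFs (0.96).

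Further HIF-responsive genes leaned towards PatDup.dist7, with 25 of 38 higher there, against 9698 of all 19938 genes, and a median of -0.16. In each direction 2 of 38 (5.26%) lay beyond 2-fold, near the shares of all genes of 4.47% in favour of MatDup.dist7 and 3.16% in favour of PatDup.dist7. Above the filter, P4ha3, a further collagen prolyl hydroxylase gene on chromosome 7, was the one beyond 2-fold, with 200.1 in MatDup.dist7 MEFs and 75.4 in PatDup.dist7 MEFs (1.24). P4hb, the beta subunit of the same enzyme, lay at -0.12 and was named after its value was seen.

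Genes around adrenomedullin were higher in MatDup.dist7 in all 6 measured cases, against 10240 of all 19938 genes, with a median of 0.59. Of the 6, 2 (33.3%) passed 2-fold in that direction, against 4.47% of all genes. Adrenomedullin acts on the receptor Calcrl, whose ligand preference is set by accessory Ramp proteins. Ramp1 had 67.8 in MatDup.dist7 MEFs and 23.0 in PatDup.dist7 MEFs (1.10), and Calcrl itself had 115 in MatDup.dist7 MEFs and 91.0 in PatDup.dist7 MEFs (0.30). Ramp3 had 135 in MatDup.dist7 MEFs and 112 in PatDup.dist7 MEFs (0.24). Ramp2 had 37.8 in MatDup.dist7 MEFs and 13.3 in PatDup.dist7 MEFs (0.88), both below the filter. Adm2, a related peptide gene, passed 2-fold below the filter, with 48.2 in MatDup.dist7 MEFs and 9.44 in PatDup.dist7 MEFs (1.33). Calcrl, Ramp2, Ramp3 and Adm2 were named after their values were seen, and 3 of the 6 genes lay below the filter, which Ramp1 passed through its MatDup.dist7 level alone. In the family of vascular endothelial growth factors and receptors, 6 of 9 genes were lower in MatDup.dist7, against 9698 of all 19938 genes. Of the 9, 1 (11.1%) passed 2-fold in favour of MatDup.dist7, against 4.47% of all genes. In favour of PatDup.dist7, 2 (22.2%) passed it, against 3.16% of all genes. Some of the 9 lay below the filter, and some were also counted among the further HIF-responsive genes. Vegfd, an X-linked lymphatic growth factor gene, had 164 in MatDup.dist7 MEFs and 70.2 in PatDup.dist7 MEFs (1.06), whereas the co-receptor gene Nrp2 had 484 in MatDup.dist7 MEFs and 992 in PatDup.dist7 MEFs (-1.01). The endothelial markers, 2 of 7 above the filter, had a median of -0.03.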

How the data were processed

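The deposited table gives, for each of 35557 probe sets, 1 intensity per array on a linear scale, made by the authors with Affymetrix Expression Console, per the submitters' processing notes. The sources used here do not state the background correction, summarisation or normalisation. The median intensity was 68.6 in MatDup.dist7 MEFs and 64.2 in PatDup.dist7 MEFs, and having 2 arrays limits precision. Of the probe sets, 21789 carried 1 symbol in the platform annotation, 1621 several and 12147 none. Only the first were used, with symbols updated through the gene identifier in the RefSeq table of GRCm38.p6 (21698 found). Log2(intensity + 16) was computed and probe sets of a gene were averaged, in Python with pandas 2.3.3. The steps were tested on simulated data. With 1 array per genotype no p-value was computed. The members and lists were chosen with earlier results of these data known. All members are named, with, from each further list, genes beyond 2-fold above the filter or the one farthest from 0. Alternatives covered the pseudocount, a floor, scaling, probe set choice, a filter and the fold threshold.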

Additional observations from a re-analysis of the deposited data

How the results depend on the processing

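Of the 36 genes, 34 kept their sign under every alternative in which they had a value, and 2, Pgk1 and Bnip3, changed it when the probe set with the highest mean replaced the average. Only 7 of the genes had several probe sets. For the rest, a changed pseudocount cannot alter the sign, and the filter and probe set choice leave the value unchanged. Sign alone is therefore a weak measure of stability. Adm stayed beyond 2-fold under all 7 alternative settings, and Pfkfb4 under 6, the exception being the pseudocount of 64. Each has 1 probe set, so the filter and probe set choice could not move either. The number of genes beyond 2-fold was 2, and became 4 with a pseudocount of 1 or with low values raised to the 25th percentile (2 in each direction, with Aldoc and Pdk1 added). With the pseudocount of 1 the shares of all genes also grew, to 10.9% in favour of MatDup.dist7 and 8.55% in favour of PatDup.dist7, and with the raised low values they were 5.27% in favour of MatDup.dist7 and 3.76% in favour of PatDup.dist7. The number was 1 with a pseudocount of 64 or under a 3-fold rule (0 higher in PatDup.dist7). With the pseudocount of 64 the shares of all genes also fell, to 0.466% in favour of MatDup.dist7 and 0.401% in favour of PatDup.dist7. Shares of all genes under the 3-fold rule are not given here. A 1.5-fold rule gave 9, of which 5 were higher in MatDup.dist7 and 4 were higher in PatDup.dist7. The shares of all genes were then 15.5% in favour of MatDup.dist7 and 12.5% in favour of PatDup.dist7. With the first Bnip3 probe set alone, a setting added after the data were seen, 2 genes were beyond 2-fold higher in MatDup.dist7. The median of the glycolysis genes was 0.03, and became -0.025 with the probe set of highest mean and -0.12 without genes of chromosome X, the second added after the data were seen. That of the hypoxia-responsive genes was 0.11, and became -0.039 with the probe set of highest mean. Quantile normalisation and centring left the number of genes beyond 2-fold at 2. No paired analysis was possible because each genotype has 1 array. For the same reason no array could be left out. Signals near the bottom of the scale, as for Car9, Epas1 and Pfkfb4, limit what their differences show.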

Other observations

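The pentose phosphate pathway, which branches from glycolysis to make ribose and reducing power, held 7 measured genes, of which 5 were lower in MatDup.dist7. Their median was -0.22, against 0.02 for all genes. Across the array, 9698 of all 19938 genes were lower in MatDup.dist7. Rpia, the ribose phosphate isomerase gene, showed an intensity of 22.3 in MatDup.dist7 MEFs and 107 in PatDup.dist7 MEFs, which is a log2 difference of -1.68. It was the 1 of 7 (14.3%) beyond 2-fold, against 3.16% of all genes in favour of PatDup.dist7. Rpia passed the signal filter through its PatDup.dist7 level alone. The abundant Pgd had 2194 in MatDup.dist7 MEFs and 2558 in PatDup.dist7 MEFs (-0.22), and Tkt, the transketolase gene, had 1416 in MatDup.dist7 MEFs and 1234 in PatDup.dist7 MEFs (0.20). Pgd and Tkt were named after their values were seen. G6pdx was not analysed here.

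Glycogen genes lay within 2-fold in all 11 cases, as did 18416 of all 19938 genes. Of the 11, 6 were higher in MatDup.dist7, with a median of 0.01. Ppp1r3c, a glycogen-targeting phosphatase subunit gene that HIF induces, was farthest from 0, with 60.8 in MatDup.dist7 MEFs and 31.6 in PatDup.dist7 MEFs (0.69), both below the signal filter.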
